A study of Sus scrofa with 12 samples.

Results

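The HSD17B genes encode the 17-beta-hydroxysteroid dehydrogenases, a family of enzymes that add or remove hydrogen at carbon 17 of steroids or at comparable positions of fatty acids and other lipids. The members were chosen by symbol: a coding gene counted as a member when its symbol in the coding-gene table was HSD17B1, HSD17B2, HSD17B3, HSD17B4, HSD17B7, HSD17B8, HSD17B10, HSD17B11, HSD17B12 or HSD17B14. Of these 10 symbols, 9 had an entry among the 21674 genes of the table, and HSD17B11 had none under that symbol. Gene positions are those of the reference annotation on the Sscrofa11.1 assembly.

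Whole-testis RNA was sequenced from Hezuo (HZ) boars, a Chinese breed that matures early, and from Landrace (LC) boars, at 30 and at 120 days of age. The 4 groups are Ha (HZ at 30 days), Hb (HZ at 120 days), La (LC at 30 days) and Lb (LC at 120 days), with 3 boars and so 3 libraries in each, 12 in all. The boars had been reared under the same conditions and were castrated to obtain the testes, which were frozen, and strand-specific libraries were made after removal of ribosomal RNA. The study compared the breeds and ages to find genes that go with early puberty. The estimated counts of coding genes added up to 23758931, 22538417 and 23490893 in the Ha libraries and to 20678367, 22707568 and 17165519 in the Hb libraries. The totals were 22233155, 18523274 and 23563949 in La and 23253496, 22951618 and 18998959 in Lb. Libraries are named by group and replicate number, as in Hb1, and the numbers name different boars in each group.

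In the testis, Leydig cells between the seminiferous tubules turn cholesterol into androgens, and HSD17B3 carries out the last step to testosterone. HSD17B1 reduces estrone to estradiol, whereas HSD17B2 works in the opposite direction and oxidises testosterone and estradiol to weaker steroids. The other members carry the family's name but are known mainly for other substrates: HSD17B4 for peroxisomal fatty acid breakdown, HSD17B7 for cholesterol synthesis, HSD17B8 and HSD17B10 for mitochondrial lipid metabolism and HSD17B12 for the elongation of long fatty acids.

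Markers of testis cells were checked first, as counts scaled to library size (CPM, with TMM factors over the 12 libraries). The Leydig list (STAR, CYP11A1, CYP17A1, HSD3B1, INSL3, LHCGR) had counts for 6 of 6 genes in every library, with none at 0. Its summed level was 9958, 9429 and 8556 CPM in the Ha libraries and 3973, 194 and 117 CPM in the Hb libraries. It was 13307, 8965 and 10875 CPM in La and 4759, 7245 and 2900.3 CPM in Lb. Its most abundant gene was CYP17A1 in every library outside Hb and INSL3 in all 3 Hb libraries. Hb1 therefore stood apart from Hb2 and Hb3, which had by far the lowest Leydig marker sums of the 12 libraries, while Hb1 lay between the Lb libraries. Some of the results that involve Hb are also given without Hb1. Since Hb1 was set aside for its Leydig marker sum, values of Leydig genes without it restate that choice in part.

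Markers of the other cell types also moved with age. The spermatid list summed to between 4.41 and 8.87 CPM in every 30-day library, to 6524, 5789 and 8232 CPM in Hb and to 4193, 3452 and 3154 CPM in Lb, with PRM1 the most abundant gene at 120 days. The Sertoli list had all 8 genes with a count in every library, and its sum was 1269.8, 1209.6 and 1664 CPM in Ha, 405, 579 and 467 CPM in Hb, 2642, 3213 and 2914 CPM in La and 605, 753 and 640.5 CPM in Lb. Its most abundant gene was INHA in the 30-day libraries and in Lb2, and CLDN11 in the others. The list of peritubular and stromal cells, 10 of 10 genes with a count in every library, summed to 4731, 4586 and 4509 CPM in Ha, 608, 354 and 255 CPM in Hb, 6908, 6180.4 and 7613 CPM in La and 3084, 3007 and 2571 CPM in Lb. COL3A1 was its most abundant gene except in Hb2 and Hb3, where ACTA2 was. In bulk tissue, fewer cells of a type and less RNA per cell cannot be told apart, and the part these cell types have in the results was not tested.

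Levels of different members were compared on the deposited FPKM, which is per transcript length. HSD17B4 and HSD17B3 held the first and second place, in either order, in all 12 libraries. In Ha, HSD17B4 led with 228 ± 33.6 FPKM (SD, n = 3), followed by HSD17B3 with 112 ± 23.1 FPKM, and these ranges did not overlap. HSD17B8 (55.3 ± 3.66 FPKM), HSD17B2 (41.7 ± 10.7), HSD17B12 (35.4 ± 6.59) and HSD17B10 (34.2 ± 3.31) came next in Ha, each overlapping its neighbour in this order. HSD17B7 (9.83 ± 0.367 FPKM) and HSD17B14 (8.25 ± 1.94) overlapped at the lower end.

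In La the order of levels began with HSD17B4 at 249 ± 46.2 FPKM and HSD17B3 at 244 ± 9.32 FPKM (SD, n = 3), and here the ranges of both overlapped. HSD17B8 (40.4 ± 2.93 FPKM), HSD17B10 (39.6 ± 3.65) and HSD17B12 (33.0 ± 3.84) overlapped in turn, and HSD17B2 followed, apart from them, at 20.0 ± 4.38 FPKM. HSD17B7 had 10.4 ± 2.52 FPKM and HSD17B14 had 7.81 ± 1.37 FPKM in La.

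At 120 days, HSD17B3 had the higher group mean. It was 64.1 ± 17.9 FPKM in Hb against 49.7 ± 16.6 FPKM for HSD17B4, and 97.2 ± 12.2 against 81.4 ± 16.5 FPKM in Lb, with overlapping ranges in both groups. HSD17B8 (28.7 ± 4.73 FPKM in Hb, 30.2 in Lb), HSD17B12 (20.7 ± 7.58 and 27.8 ± 4.71) and HSD17B10 (13.1 ± 3.86 and 22.9 ± 3.24) kept this order in both breeds, with neighbours overlapping. HSD17B14 (7.04 ± 2.14 FPKM in Hb, 8.10 ± 0.231 in Lb) had a higher mean than HSD17B7 (4.39 ± 2.16 and 5.44 ± 0.225), the reverse of their order at 30 days, and the ranges of this pair were apart in Lb and overlapped in Hb. HSD17B2 was listed at 0.03 to 0.08 FPKM in both groups.

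Summed over the members, the level was 525 ± 28.5 FPKM in Ha, 188 ± 13.5 in Hb, 644 ± 59.1 in La and 273 ± 7.95 in Lb (SD, n = 3). HSD17B4 made up 43.3% of that sum in Ha and 38.5% in La, and 26.8% in Hb and 29.7% in Lb. HSD17B3 made up 21.4% in Ha, 34.1% in Hb, 38.0% in La and 35.6% in Lb. Together they held 64.8%, 60.9%, 76.5% and 65.4% of the summed FPKM in Ha, Hb, La and Lb. By CPM, which favours long transcripts, HSD17B4 made up 64.4%, 45.6%, 59.7% and 49.6% in the same order of groups. The mean share of HSD17B4 was lower at 120 than at 30 days on both scales. In HZ the ages were apart on both scales. In LC they overlapped, with La2 at 33.6% and Lb2 at 34.3% on FPKM and 54.8% and 55.5% on CPM.

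**Figure D1:**
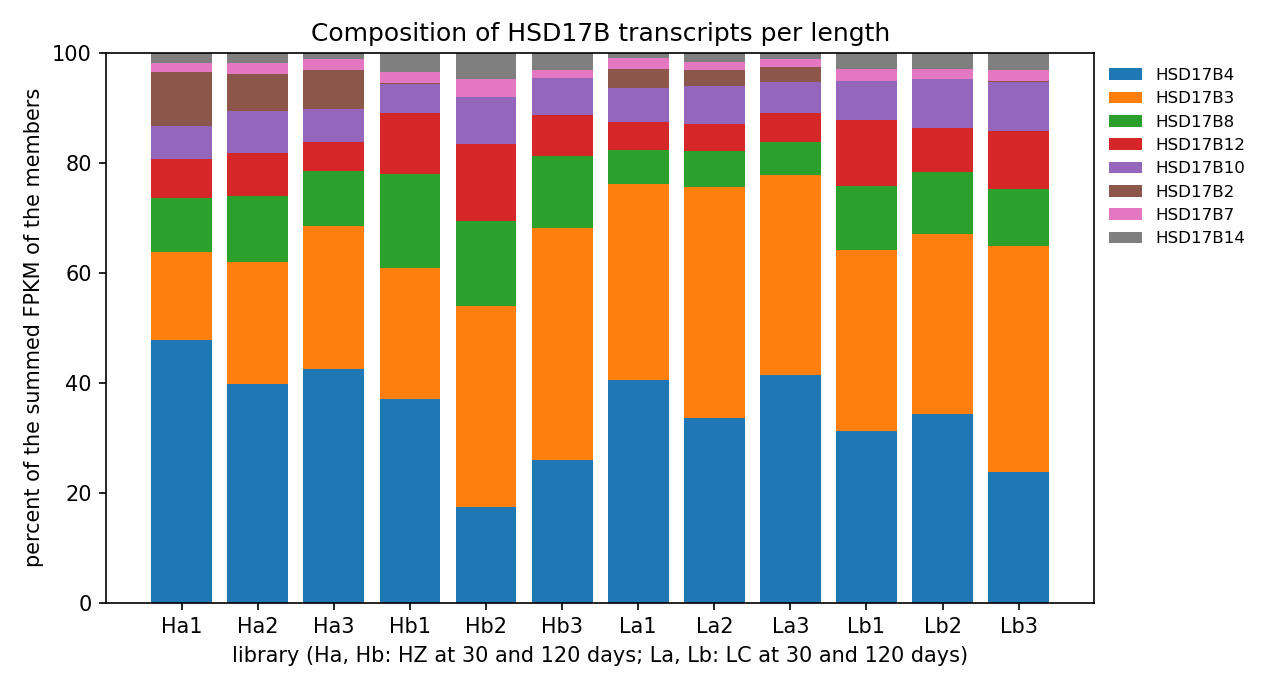
Share of each HSD17B member in the summed FPKM of the members, in percent, as 1 stacked bar for each of the 12 libraries; HSD17B1 was listed at 0 and adds nothing. HSD17B4 (lowest segment) and HSD17B3 (next segment) are the largest in every bar, and HSD17B2 is visible in the Ha and La bars only.

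Differences between groups were tested with edgeR over all coding genes that passed a filter on low counts, 6 libraries per comparison. A gene was called when its adjusted p was under 0.05 and its log2 fold change was beyond 1 in either direction, and in each comparison a positive log2 fold change means higher in the second group. With age in HZ (Ha vs Hb), 2 of the 8 members tested were called, HSD17B2 and HSD17B4, both lower at 120 days, against 51.4% of the 16548 genes tested (28.2% higher, 23.2% lower), and 4 members were called with limma on the FPKM scale. With age in LC (La vs Lb), 3 of 8 were called, HSD17B2, HSD17B3 and HSD17B4, all lower, against 47.6% of 16637 genes (27.5% higher, 20.1% lower). Between breeds at 30 days (Ha vs La), 2 of 8 were called, HSD17B3 higher and HSD17B2 lower in LC, against 7.62% of 15648 genes (3.6% higher, 4.01% lower).

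Between breeds at 120 days (Hb vs Lb), edgeR called 0 of the 7 members tested, with 2 at an unadjusted p under 0.05 (HSD17B3 and HSD17B10), and DESeq2 and limma also called 0. The background there was 3.85% of 16311 genes (2.65% higher, 1.2% lower). Counts of called genes in the lists below are read beside the share of all genes called in the same comparison. The interaction of breed and age over all 12 libraries, which asks whether the age difference of a gene differs between breeds, was called by edgeR for 0 of 8 members, with 1 (HSD17B3) at an unadjusted p under 0.05. DESeq2 called 0, limma on log2(FPKM + 1) called 1 (HSD17B2) and limma on log2(FPKM + 0.1) called 0, against 5.14% of 17332 genes by edgeR. HSD17B2 was near 0 in both 120-day groups. Its interaction there (1.01) therefore restates its difference between breeds at 30 days on the same scale (−1.01). The median log2 fold change of the members tested was −0.53 with age in HZ, −0.56 with age in LC, 0.03 between breeds at 30 days and 0.32 at 120 days, beside −0.02, 0.01, 0.00 and 0.00 over all genes tested. The comparisons share groups, so they are not independent of each other. HSD17B1 passed the filter in none of them, and HSD17B2 passed it in the age comparisons through its 30-day counts.

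**Figure D2:**
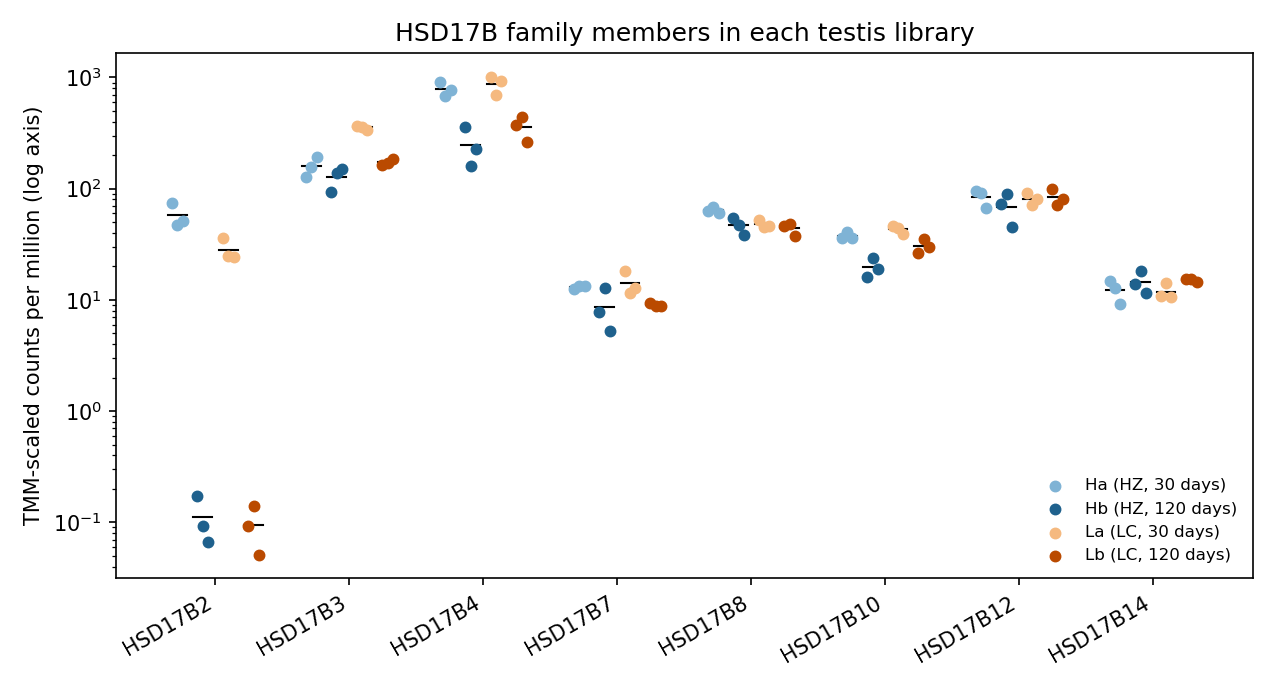
CPM of the 8 members with counts, on a log axis, with 1 point per library (3 per group) and a bar at each group mean; Ha and Hb are HZ and La and Lb are LC boars at 30 and 120 days. HSD17B2 lies between 24.5 and 74.6 CPM at 30 days and between 0.0513 and 0.174 CPM at 120 days, while HSD17B12 lies between 45.2 and 100.1 CPM in all 12 libraries.

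HSD17B3 (ncbi_100513224, chromosome 10, 25822913 to 25866871) encodes the enzyme that reduces androstenedione to testosterone. In HZ it had 127, 157 and 194 CPM at 30 days and 93.2, 138 and 151 CPM at 120 days. In LC it had 369.5, 360.4 and 336 CPM at 30 days and 163, 172 and 186 CPM at 120 days. The LC boars at 30 days stood above all others, the LC boars at 120 days lay within the range of the HZ boars at 30 days, and the HZ ages overlapped on CPM.

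HSD17B3 fell with age in LC, with a log2 fold change of −1.02 (SE 0.10, adjusted p = 4.25e-05), all 3 Lb libraries below all 3 La libraries. This difference sits at the fold threshold: it was −0.99 by DESeq2 and with DESeq2 size factors and −0.97 without Lb1, and the call was also lost without La1, while the adjusted p stayed between 1.22e-17 and 0.000552 over the 14 alternatives. In HZ the age difference was −0.33 (SE 0.22, adjusted p = 0.228, between 0.0171 and 0.565 over the 14 alternatives, with 0 of them calling it) and −0.14 without Hb1. On FPKM the HZ ages did not overlap, 89.3 to 135.5 in Ha and 43.5 to 74.7 in Hb, and limma gave −0.81 and −0.82 (offsets 1 and 0.1, adjusted p = 0.0175 and 0.0171), under the fold threshold. The interaction was −0.71 (SE 0.26, adjusted p = 0.117, between 0.0353 and 0.305 over its 18 alternatives), so a difference between the breeds in the change with age was not called. Without Hb1 it was −0.86 (adjusted p = 0.0353), still under the fold threshold.

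At 30 days HSD17B3 was higher in LC, 2.23-fold (log2 1.15, SE 0.14, adjusted p = 0.00232), with 3 of 3 La libraries above every Ha library, and it was called under each of the 14 alternatives. At 120 days it was also higher in 3 of 3 Lb libraries than in every Hb library, by a log2 fold change of 0.49 (SE 0.20), which did not pass (adjusted p = 0.1801), and the value was 0.29 without Hb1. The Leydig marker sum at 30 days overlapped between the breeds, and edgeR called 0 of its 6 genes in Ha vs La (5 at an unadjusted p under 0.05; DESeq2 and limma called 0), with a list median of 0.08. Its genes went both ways: CYP17A1 at 0.63 (SE 0.14, adjusted p = 0.0173), LHCGR at 0.93 (SE 0.18, adjusted p = 0.0117) and INSL3 at 0.55 (SE 0.17, adjusted p = 0.0504) were higher in La, and STAR at −0.40 (SE 0.18, adjusted p = 0.161), CYP11A1 at −0.47 (SE 0.19, adjusted p = 0.125) and HSD3B1 at −0.39 (SE 0.13, adjusted p = 0.0703) were lower in La. The Sertoli sum was higher in every La than in every Ha library, and 3 of its 8 genes were called, all higher in La, led by INHA (log2 1.51, SE 0.19, adjusted p = 0.00235). Their part in the difference in HSD17B3 was not tested.

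HSD17B3 was set against CYP17A1, the Leydig cell enzyme that makes its substrate, within each library. CYP17A1 had 1762, 1708 and 1717 FPKM in Ha, 468, 7.92 and 6.63 FPKM in Hb, 3116, 2123 and 2591 FPKM in La and 786, 1276 and 689.6 FPKM in Lb. The ratio of HSD17B3 to CYP17A1 on FPKM was 0.0507, 0.0646 and 0.0789 in Ha and 0.0929, 9.36 and 11.3 in Hb. It was 0.0805, 0.116 and 0.0900 in La and 0.112, 0.0722 and 0.161 in Lb. In Hb2 and Hb3, then, HSD17B3 exceeded CYP17A1, whereas in Hb1 and in the other 9 libraries CYP17A1 was far above HSD17B3.

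The log2 ratio differed by 5.07 between Ha and Hb, where the ranges were apart, but the difference rests on Hb2 and Hb3 (two-sided exact permutation p = 0.1, the smallest that 3 against 3 libraries can give). It differed by 0.21 between La and Lb (p = 0.7, two-sided exact permutation), by 0.57 between Ha and La with ranges apart (p = 0.1, the smallest possible in the exact permutation) and by −4.29 between Hb and Lb with overlapping ranges (p = 0.3, exact permutation). On FPKM HSD17B3 in Hb2 and Hb3 (74.1 and 74.7) was above Hb1 (43.5) and below every Ha library (89.3 to 135.5).

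**Figure D3:**
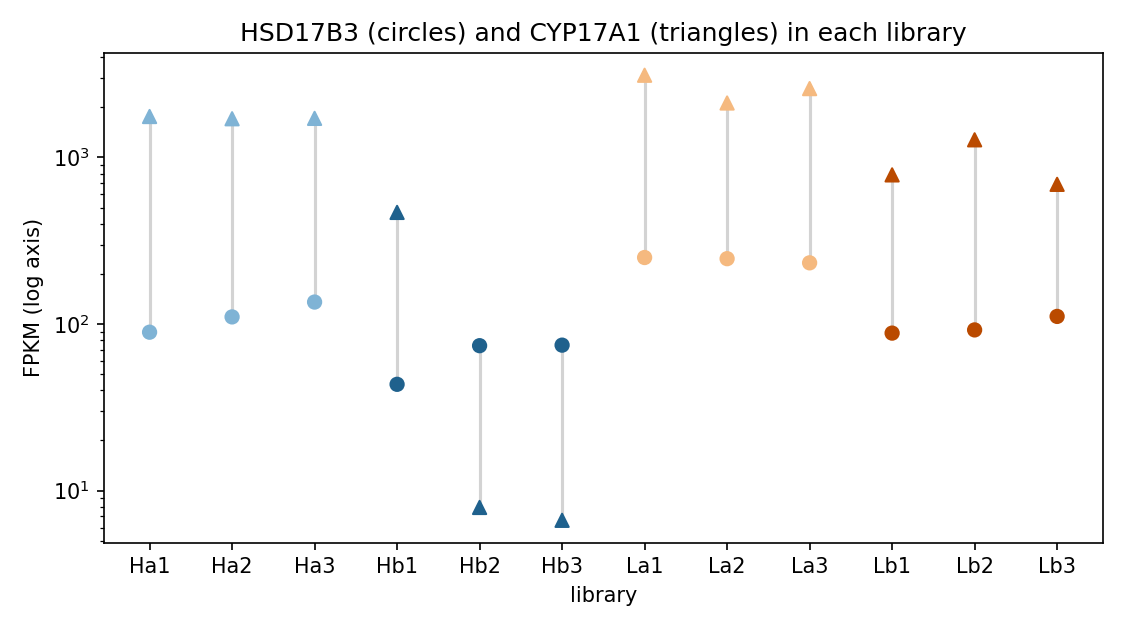
FPKM of HSD17B3 (circles) and CYP17A1 (triangles) in each of the 12 libraries, on a log axis, joined by a grey line within a library; Ha and Hb are HZ and La and Lb are LC boars at 30 and 120 days. CYP17A1 lies above HSD17B3 in 10 libraries and below it in Hb2 (7.92 against 74.1 FPKM) and Hb3 (6.63 against 74.7 FPKM).

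HSD17B2 (ncbi_100312973, chromosome 6, 6296429 to 6360434) oxidises testosterone to androstenedione and estradiol to estrone. It had 1943, 1171 and 1323 counts in Ha, or 74.6, 47.0 and 51.4 CPM, and 3, 2 and 1 counts in Hb. In La it had 844, 493 and 616 counts, or 35.8, 24.8 and 24.5 CPM, and in Lb 2, 3 and 1 counts. Every 30-day library was thus high and every 120-day library near the limit of detection, in both breeds.

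Summed over the group and scaled to library size, the level of HSD17B2 at 30 days was 520.1 times that at 120 days in HZ (95% exact counting interval 239 to 1418, 4437 against 6 counts) and 296 times in LC (136 to 807, 1953 against 6 counts). Such intervals, and the limit of 3 counts per library used for genes at 0, cover counting error only. The calls of HSD17B2 with age carry little beyond these counts, since the gene passed the filter through its 30-day libraries, and their p-values are not given. Between the breeds at 30 days HSD17B2 was lower in LC, with a log2 fold change of −1.03 (SE 0.22, adjusted p = 0.0145), and all 3 La libraries lay below all 3 Ha libraries. That call sits at the threshold and was lost without Ha1 (−0.80), without La2 (−0.92) and without La3 (−0.92), with an adjusted p between 4.64e-05 and 0.0625 over the 14 alternatives. At 120 days HSD17B2 was below the filter in Hb vs Lb, with 6 counts in each group. The 2 alternatives that tested it gave log2 fold changes of −0.20 and −0.17, neither called and too imprecise at this depth for a reading.

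The genes whose pattern was most like that of HSD17B2 over the 12 libraries, by the root mean square difference of centred log2 CPM among 14954 genes, were KCTD11 (0.707), CDC42EP5 (0.838) and NXNL2 (0.895). KCTD11 had 6.96 to 12.2 CPM in the 30-day libraries and 0 in all 6 of the 120-day libraries. AKR1C1 (ncbi_733634) encodes another enzyme that reduces steroid ketones. Among the genes lower in Ha vs Hb, it had the smallest adjusted p of the steroid hormone synthesis and conversion list described below. It had 418, 169 and 635 CPM in Ha and 0, 0.464 and 1.25 CPM in Hb. In LC it was low at both ages, 1.35 to 2.33 CPM in La and 0.185 to 0.424 CPM in Lb, so it was also lower in La than in Ha (log2 −7.90, SE 0.58, adjusted p = 0.000350). The other AKR1C1 entry (ncbi_733694) was near 0 throughout and had another pattern. Its means were 0.538 CPM in Ha, 0.156 in Hb, 0.129 in La and 0.594 in Lb.

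HSD17B1 (ncbi_100147712, chromosome 12, 20269468 to 20271349), the enzyme that makes estradiol from estrone in the ovary, had 0 counts in all 12 libraries. With a limit of 3 counts per library this allows a level of up to 0.115 CPM in the deepest and 0.198 CPM in the shallowest library, and no fold change was computed. It was 1 of 1020 coding genes with 0 counts throughout. Its neighbours on the chromosome had counts in every library, 32 to 333 for PSMC3IP and 826 to 1463 for COASY. CYP19A1, 1 of the 3 aromatase genes of the list, was close to 0 as well, with at most 0.269 CPM in Ha, 0 in all 3 Hb libraries, at most 0.170 CPM in La and at most 0.0463 CPM in Lb, and it did not pass the filter. The aromatase gene CYP19A3 had 181 ± 35.3 CPM in Ha, 46.1 ± 52.0 in Hb, 249 ± 68.1 in La and 126 ± 75.4 in Lb (SD, n = 3), and CYP19A2 had at most 1.99 CPM in any library. CYP19A3 was called lower with age in HZ (log2 −1.97, SE 0.74, adjusted p = 0.0448, and −3.49 without Hb1) and not in LC (−0.97, SE 0.46, adjusted p = 0.0917).

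HSD17B14 (ncbi_100523496, chromosome 6, 54125229 to 54144143), whose product can oxidise estradiol in the test tube, had 9.16 to 14.8 CPM in Ha, 11.5 to 18.3 in Hb, 10.5 to 14.3 in La and 14.6 to 15.5 in Lb. The Lb libraries lay just above the La libraries and the other pairs of groups overlapped. It was called in no comparison. With age in LC the log2 fold change was 0.37 (SE 0.18, adjusted p = 0.0942). There limma on the FPKM scale gave 0.06 and 0.07, or 0.22 and 0.33 relative to the median of all genes. With age in HZ the log2 fold change was 0.25 (SE 0.25, adjusted p = 0.404). There limma on the FPKM scale gave −0.21 and −0.24, or 0.07 and 0.24 relative to the median. HSD17B14 overlaps PLEKHA4 by 128 bases and the lncRNA gene LOC106510565 by 11937 bases.

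The steroid hormone synthesis and conversion list had 19 of its 22 symbols in the table, in 20 rows, since AKR1C1 has 2. In Ha vs Hb, 0 of 17 genes tested were called higher and 11 lower, beside 28.2% and 23.2% of all genes. The median log2 fold change was −2.20 (all genes −0.02). STAR, which brings cholesterol into the mitochondrion, fell by 5.69 on the log2 scale (SE 1.25, adjusted p = 0.00496, and by 8.40 without Hb1), and CYP11A1, which cuts the cholesterol side chain, fell by 4.10 (SE 0.97, adjusted p = 0.00696, and by 6.08 without Hb1). HSD3B1 was −1.60 (SE 0.21, adjusted p = 0.000417) and SRD5A2 −1.09 (SE 0.41, adjusted p = 0.0444), both called, whereas SRD5A1 was −0.63 (SE 0.72, adjusted p = 0.459). CYP17A1 at −2.83 (SE 1.53, adjusted p = 0.134) was not called, because Hb1 lay far above Hb2 and Hb3: without Hb1 it was −7.45 (SE 0.18) and was called. The calls of the SRD5A genes also changed without Hb1, where SRD5A1 was −2.13 (SE 0.29, adjusted p = 0.000959) and called and SRD5A2 was −0.81 (SE 0.37, adjusted p = 0.0984) and not called.

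Without Hb1, 14 of 19 list genes tested were called lower and 1 higher in Ha vs Hb, and all 6 Leydig markers were called lower (4 of 6 with Hb1), beside 49% of all 16908 genes called. Hb1 was left out for its high Leydig marker sum, and STAR, CYP11A1, CYP17A1 and HSD3B1 stand on both lists. These counts therefore follow in part from that choice. HSD17B3 stayed uncalled in Ha vs Hb with or without Hb1. In La vs Lb, 1 of 17 was called higher and 9 lower, with a median of −1.07 (all genes 0.01). The higher one was CYP19A2, with 0 to 0.119 CPM in La and 1.18 to 1.99 CPM in Lb, too few counts in La for the size of the fold. Of all genes, 27.5% were called higher and 20.1% lower in La vs Lb. There STAR was −2.96 (SE 0.46, adjusted p = 0.000498), CYP11A1 −1.55 (SE 0.30, adjusted p = 0.00186) and CYP17A1 −1.19 (SE 0.26, adjusted p = 0.00340), all called. CYB5A, the cytochrome b5 that aids CYP17A1, had the smallest adjusted p among the genes that fell in LC (log2 −1.66, SE 0.21, adjusted p = 0.000142). HSD3B1 was −0.69 (SE 0.24, adjusted p = 0.0300) and SRD5A2 −0.43 (SE 0.36, adjusted p = 0.316), neither called, with SRD5A1 at 0.24 (SE 0.40, adjusted p = 0.605).

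Between breeds, 2 list genes were called higher and 1 lower of 17 in Ha vs La (median −0.06). The sulfotransferase SULT2A1 led those higher (log2 1.53, SE 0.23, adjusted p = 0.00498), and the gene called lower was AKR1C1 (ncbi_733634). In Hb vs Lb, 1 of 17 was called, HSD11B2, which inactivates glucocorticoids, higher in Lb (log2 3.76, SE 0.58, adjusted p = 0.0182), with a list median of 1.24 (all genes 0.00). That call was lost without Hb3, Lb2 or Lb3 and with the replicate block, as was each other call of a pathway list gene in Hb vs Lb. Without Hb1, 8 of 19 were called higher in Lb, with 3.73% of all 16672 genes called, and among them CYP17A1 was 6.90 (SE 0.40) and STAR 5.07 (SE 0.64). CYP17A1 and STAR are on the Leydig list for which Hb1 was left out, so these values and part of the count restate that choice. No member was called in Hb vs Lb without Hb1 by edgeR, with 2 at an unadjusted p under 0.05, HSD17B4 at 0.90 (SE 0.25) and HSD17B10 at 0.54 (SE 0.22), while HSD17B3 was 0.29 (SE 0.15). The interaction was called for 3 of 19 list genes, all with a more positive age difference in LC, led by HSD11B2 (4.06, SE 0.69, adjusted p = 0.00914). Without Hb1 it was called for 13 of 19, a count with the same limit.

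The list of steroid and gonadotrophin receptors had 0 higher and 3 lower of 5 tested with age in HZ, beside 28.2% and 23.2% of all genes. In LC 0 of 6 were higher and 5 lower with age, beside 27.5% and 20.1% of all genes. FSHR, the Sertoli cell receptor for follicle-stimulating hormone, led those lower in LC (log2 −1.17, SE 0.16, adjusted p = 0.000207). FSHR was also the 1 gene called in Ha vs La, higher in La (log2 1.22, SE 0.15, adjusted p = 0.00246). In Hb vs Lb edgeR called 0 of 5, with 2 at an unadjusted p under 0.05, DESeq2 called 0 and limma 1 (offset 1) and 0 (offset 0.1). Without Hb1 edgeR called 1 of 5 there, LHCGR, higher in Lb (log2 2.96, SE 0.49, adjusted p = 0.0258). LHCGR is on the Leydig list for which Hb1 was left out.

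HSD17B4 (ncbi_397574, chromosome 2, 123313445 to 123401386) encodes the D-bifunctional protein, which carries out the hydration and dehydrogenation steps of beta-oxidation in peroxisomes. It had 908, 677 and 768 CPM in Ha and 356, 161 and 229 CPM in Hb. In LC it had 1011, 693 and 920.4 CPM in La and 376, 437 and 261 CPM in Lb. Every 120-day library was below every 30-day library of both breeds, the breeds overlapped at each age, and Hb1 was the highest of the Hb libraries.

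HSD17B4 fell with age by 1.65 on the log2 scale in HZ (SE 0.29, adjusted p = 0.00179) and by 1.28 in LC (SE 0.21, adjusted p = 0.000626), called under each of the 14 alternatives in either breed. Without Hb1 the value in HZ was −2.00 (SE 0.22), and the adjusted p there was between 3.06e-07 and 0.00997 over the alternatives. Between breeds the log2 fold change was 0.15 at 30 days (SE 0.16, adjusted p = 0.525) and 0.58 at 120 days (SE 0.29, adjusted p = 0.248), and the interaction was 0.37 (SE 0.38, adjusted p = 0.601). The 3 genes with the most similar pattern over the 12 libraries were COMTD1 (root mean square difference 0.203), CD63 (0.204) and GALM (0.204). CD63, a tetraspanin of late endosomes, had 715 to 846 CPM in Ha, 207 to 359 in Hb, 869 to 965 in La and 296 to 512 in Lb.

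Of the peroxisomal beta-oxidation list, 0 of 14 genes were called higher and 10 lower in Ha vs Hb, with a median of −1.45 (all genes −0.02), beside the 23.2% of all genes called lower. In La vs Lb 0 of 13 were higher and 3 lower, with a median of −0.87 (all genes 0.01), beside the 20.1% of all genes called lower there. With limma on the FPKM scale (offsets 1 and 0.1), 11 and 13 genes were called in Ha vs Hb and 7 and 8 in La vs Lb. ACOX2, the oxidase for branched chains and bile acid intermediates, led in both, with 37.7 to 46.9 CPM in Ha, 5.01 to 6.55 in Hb, 34.2 to 39.7 in La and 6.29 to 10.7 in Lb. Its log2 fold change was −2.88 in HZ (SE 0.19, adjusted p = 1.71e-05) and −2.22 in LC (SE 0.22, adjusted p = 4.01e-05).

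SCP2, which holds the thiolase that acts after HSD17B4, had a positive difference with age, 0.53 in HZ (SE 0.20, adjusted p = 0.0497) and 0.93 in LC (SE 0.30, adjusted p = 0.0215), neither called. ABCD2, a transporter of very long chain fatty acids, was at 0 in all 120-day libraries. It had 1.63 to 2.07 CPM in Ha, which makes it at least 10.6-fold lower in Hb against the limit of 3 counts per library, and 0.0848, 2.16 and 0 CPM in La, where 1 library holds nearly all of the signal. Between breeds at 30 days, edgeR called 0 of 14 (5 at an unadjusted p under 0.05; DESeq2 and limma called 0). At 120 days it called 1 of 13, AMACR, a racemase of branched-chain acyl-CoA, lower in Lb (log2 −1.15, SE 0.23, adjusted p = 0.0347). Without Hb1 AMACR was −1.11 (SE 0.26, adjusted p = 0.0651) and not called, and the 1 gene called was EHHADH, higher in Lb (1.68, SE 0.30, adjusted p = 0.0332).

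HSD17B10 (ncbi_100524293, chromosome X, 46218540 to 46220942) encodes a mitochondrial enzyme that breaks down isoleucine and is also a subunit of mitochondrial RNase P. It had 36.1, 40.6 and 36.1 CPM in Ha, 16.0, 24.0 and 18.8 in Hb, 46.2, 44.0 and 39.4 in La and 26.6, 35.4 and 30.1 in Lb. At each breed the 120-day libraries lay below the 30-day libraries, and every Lb library was above every Hb library. With age in LC, limma on the FPKM scale gave −0.77 and −0.80, or −0.61 and −0.53 relative to the median of all genes, not called. By edgeR the log2 fold change with age was −0.94 in HZ (SE 0.18, adjusted p = 0.00275) and −0.48 in LC (SE 0.14, adjusted p = 0.0157), both under the fold threshold.

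In HZ that value crossed the threshold and was called without Hb2 (−1.14) and by limma on the FPKM scale (−1.35 and −1.42, or −1.08 and −0.94 relative to the median of all genes). The adjusted p was between 3.31e-05 and 0.0131 over the 14 alternatives. At 120 days HSD17B10 was 0.68 higher in Lb on the log2 scale (SE 0.22), which did not pass (adjusted p = 0.105, between 0.0228 and 0.270 over the 14 alternatives, none of which called it), and the interaction was 0.44 (SE 0.23, adjusted p = 0.265). The gene overlaps RIBC1 by 152 bases. Its counts were fractional in 12 of 12 libraries, as were those of HSD17B14 and of HSD17B8, which overlaps no other gene, and whether reads were shared between genes was not tested.

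In the list of mitochondrial RNase P and isoleucine breakdown, 1 of 11 genes was called higher and 7 lower in Ha vs Hb (median −1.08, all genes −0.02). In La vs Lb 0 were higher and 1 lower (median −0.54, all genes 0.01). The shares of all genes called higher and lower were 28.2% and 23.2% in Ha vs Hb and 27.5% and 20.1% in La vs Lb. The gene called higher in HZ was ACADSB, the acyl-CoA dehydrogenase of isoleucine breakdown (log2 1.58, SE 0.35, adjusted p = 0.00517). BCKDHA, a subunit of the branched-chain keto acid dehydrogenase, had the smallest adjusted p among those that fell in HZ (log2 −1.51, SE 0.14, adjusted p = 9.29e-05). BCKDHB was the gene that fell in LC (log2 −1.85, SE 0.31, adjusted p = 0.000771). Of the other subunits of RNase P, TRMT10C was 0.59 in HZ (SE 0.17, adjusted p = 0.0163) and −0.09 in LC (SE 0.16, adjusted p = 0.643), and KIAA0391, which encodes the catalytic subunit PRORP, was −0.55 (SE 0.19, adjusted p = 0.0362) and −0.30 (SE 0.24, adjusted p = 0.286), none called. ACADSB was also the 1 gene called in Ha vs La, higher in La (log2 3.03, SE 0.22, adjusted p = 0.000348). In Hb vs Lb 2 were called higher and 0 lower, led by BCKDHA (log2 1.07, SE 0.24, adjusted p = 0.0432), which lost its call without Hb1 (1.18, SE 0.27, adjusted p = 0.0583), where BCKDHB was the 1 gene called (2.55, SE 0.47, adjusted p = 0.0340).

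HSD17B8 (ncbi_100154372, chromosome 7, 25247577 to 25249786), a subunit of the ketoacyl reductase of mitochondrial fatty acid synthesis, had 60.9 to 68.5 CPM in Ha, 38.2 to 54.7 in Hb, 45.1 to 52.2 in La and 37.7 to 48.1 in Lb. The Ha libraries stood above all others. The log2 fold change was −0.45 with age in HZ (SE 0.16, adjusted p = 0.0361) and −0.42 between breeds at 30 days (SE 0.10, adjusted p = 0.0201), both under the fold threshold, and −0.10 with age in LC (SE 0.13, adjusted p = 0.502). On the FPKM scale the age difference was −0.93 and −0.95 in HZ (adjusted p = 0.000665 and 0.000694), or −0.66 and −0.48 relative to the median of all genes, and −0.41 and −0.42 in LC (adjusted p = 0.00415 and 0.00458), or −0.24 and −0.15 relative to it, none called, with the ages apart in both breeds. CBR4, the other subunit of that reductase, was −0.70 in HZ (SE 0.18, adjusted p = 0.00946) and −0.78 in LC (SE 0.23, adjusted p = 0.0150), also under it.

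The list of mitochondrial fatty acid synthesis had 1 gene called higher and 2 lower of 8 in Ha vs Hb (median −0.26), beside 28.2% and 23.2% of all genes, and 2 higher and 1 lower without Hb1. With all libraries those called included MECR, the enoyl reductase, as the higher one (log2 1.27, SE 0.17, adjusted p = 0.000486) and the ketoacyl synthase OXSM, which led those lower (log2 −1.70, SE 0.23, adjusted p = 0.000452). In La vs Lb 0 were higher and 1 lower of 7, LIPT2 (log2 −1.59, SE 0.27, adjusted p = 0.000923). Between breeds at 30 days edgeR called 0 of 8 (5 at an unadjusted p under 0.05; DESeq2 and limma called 0). At 120 days it called 1 of 7, MECR, lower in Lb (log2 −1.30, SE 0.18, adjusted p = 0.0150), a call lost without Hb3, Lb2 or Lb3 and with the replicate block. The interaction was called for MECR as well (−1.13, SE 0.24, adjusted p = 0.0193), with 39.1 to 47.8 CPM in Ha, 84.5 to 126 in Hb, 32.4 to 45.2 in La and 37.0 to 44.4 in Lb. MECR was the most abundant gene of this list in CPM in every library.

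HSD17B12 (ncbi_100312972, chromosome 2, 18461487 to 18611761), the ketoacyl-CoA reductase that elongates very long chain fatty acids, had 67.0 to 95.4 CPM in Ha, 45.2 to 88.7 in Hb, 70.9 to 90.5 in La and 71.2 to 100.1 in Lb. All pairs of groups overlapped and it was called in no comparison. The log2 fold change was −0.30 with age in HZ (SE 0.26, adjusted p = 0.329) and 0.06 with age in LC (SE 0.15, adjusted p = 0.722), where the FPKM scale gave −0.25 with both offsets, or −0.08 and 0.02 relative to the median of all genes. In HZ the FPKM scale gave −0.79 and −0.82 (adjusted p = 0.0284 and 0.0283), or −0.52 and −0.35 relative to that median, under the fold threshold, with overlapping ages (27.8 to 39.8 FPKM in Ha and 13.3 to 28.4 in Hb).

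Of the genes that act with HSD17B12 in elongation, 3 of 10 were called higher and 4 lower in Ha vs Hb (2 lower without Hb1), beside 28.2% and 23.2% of all genes, with ELOVL4, which makes the longest chains, leading those higher (log2 3.28, SE 0.35, adjusted p = 0.000161) and the dehydratase HACD3 those lower (log2 −1.39, SE 0.18, adjusted p = 0.000413). In La vs Lb 3 of 10 were higher and 2 lower, near the 27.5% and 20.1% of all genes, led by ELOVL2 (log2 2.01, SE 0.11, adjusted p = 8.85e-07) and HACD4 (log2 −2.53, SE 0.33, adjusted p = 0.000186). The list medians were 0.14 and 0.65, and edgeR, DESeq2 and limma each called 0 of 10 in either breed comparison, with 4 at 30 days and 3 at 120 days at an unadjusted p under 0.05 by edgeR.

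HSD17B7 (ncbi_100155418, chromosome 4, 87720747 to 87743037), the ketoreductase of cholesterol synthesis, had 12.5, 13.4 and 13.5 CPM in Ha, 7.77, 12.8 and 5.28 in Hb, 18.3, 11.5 and 12.7 in La and 9.34, 8.80 and 8.78 in Lb. The ages overlapped in HZ through Hb2, and in LC every 120-day library was lower. The log2 fold change was −0.61 in HZ (SE 0.31, adjusted p = 0.120) and −0.64 in LC (SE 0.21, adjusted p = 0.0253), neither called. Without Hb2 the value in HZ was −1.04 and was called, as it was on the FPKM scale (−1.08 and −1.25, or −0.80 and −0.78 relative to the median of all genes), with an adjusted p between 0.00755 and 0.264 over the 14 alternatives.

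The cholesterol synthesis list had 17 of its 19 symbols in the table. In Ha vs Hb 3 were called higher and 9 lower (median −1.01, all genes −0.02), beside 28.2% and 23.2% of all genes. In La vs Lb 2 were higher and 8 lower (median −0.78, all genes 0.01), beside 27.5% and 20.1% of all genes. NSDHL, the decarboxylating dehydrogenase that acts just before HSD17B7, led those higher in both breeds, with 2.47 in HZ (SE 0.17, adjusted p = 1.87e-05) and 1.85 in LC (SE 0.12, adjusted p = 2.84e-06). DHCR7 led those lower in HZ (log2 −1.96, SE 0.21, adjusted p = 0.000150) and TM7SF2 in LC (log2 −2.04, SE 0.18, adjusted p = 2.21e-05). DHCR7, which makes cholesterol from 7-dehydrocholesterol, was also the 1 gene called in Ha vs La, lower in La (log2 −1.05, SE 0.11, adjusted p = 0.00147), and edgeR called 0 of 17 in Hb vs Lb (8 at an unadjusted p under 0.05; DESeq2 and limma called 0). Without Hb1 it called 4 there, all higher in Lb, led by TM7SF2 (1.95, SE 0.28, adjusted p = 0.0179).

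**Figure D4:**
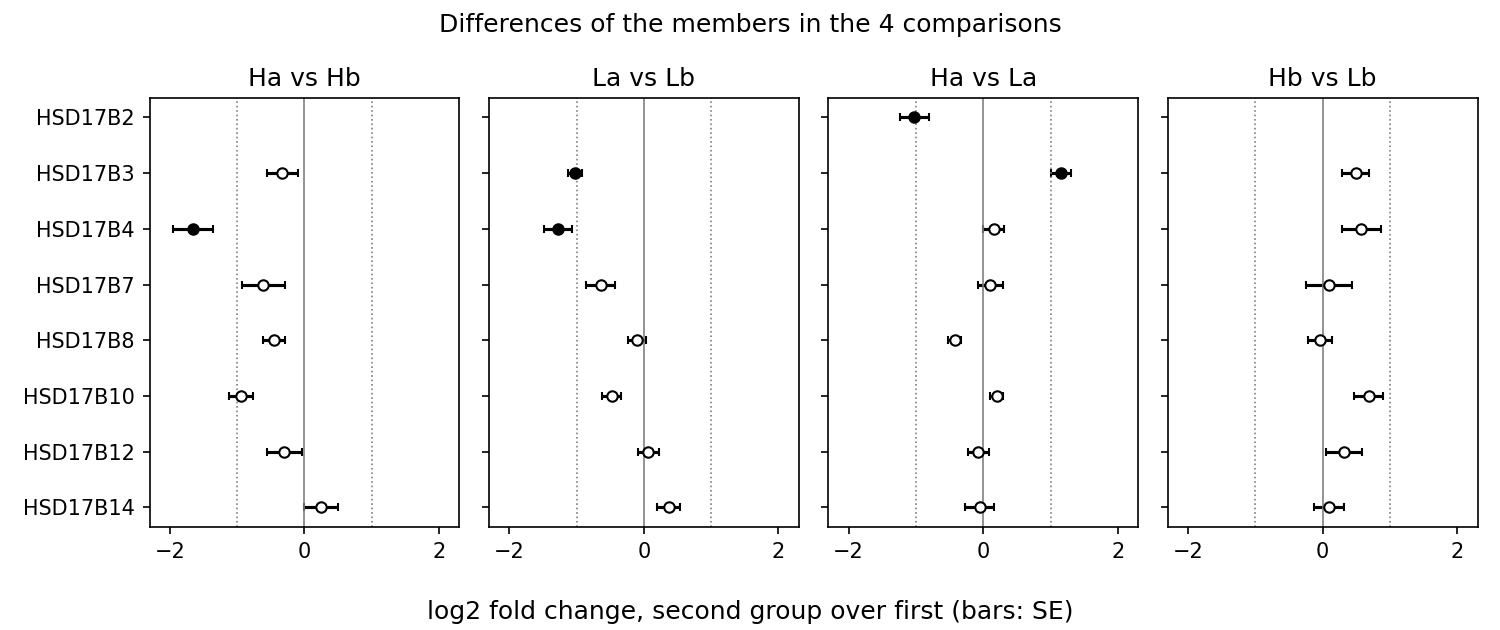
Log2 fold change of the members in the 4 comparisons (second group over first), with the SE of the edgeR fit as bars, filled points for called members and dotted lines at the fold threshold; HSD17B1 is not drawn, and HSD17B2 is drawn in Ha vs La only, since it had 1 to 3 counts per library at 120 days. HSD17B4 lies left of the dotted line in both age comparisons, and HSD17B3 lies at −1.02 in La vs Lb and 1.15 in Ha vs La.

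On the FPKM scale the median log2 fold change of all genes moved to −0.28 (offset 1) and −0.47 (offset 0.1) in Ha vs Hb and to −0.16 and −0.27 in La vs Lb, so age differences on that scale are read relative to it. Relative to the median, HSD17B4 was −1.94 and −1.76 in HZ and −1.44 and −1.35 in LC, and HSD17B3 was −0.54 and −0.35 in HZ and −1.16 and −1.06 in LC. In Hb vs Lb the medians were 0.07 and 0.12, and HSD17B3 was 0.55 and 0.52 relative to them.

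HSD17B11 has no entry under its symbol, but a gene described as estradiol 17-beta-dehydrogenase 11 stands under LOC100520923, and it was looked at after the values were seen. It had 30.0, 38.3 and 41.5 CPM in Ha, 53.9, 49.9 and 44.9 in Hb, 68.3, 51.3 and 65.3 in La and 53.0, 53.8 and 57.6 in Lb. On CPM the Ha libraries were the lowest, below all Hb and all La libraries. On FPKM it had 14.6 ± 2.33 in Ha, 13.1 ± 1.69 in Hb, 24.2 ± 3.54 in La and 16.4 ± 1.64 in Lb (SD, n = 3), so the HZ ages overlapped there with the higher mean at 30 days, while Ha stayed below La. The log2 fold change was 0.44 with age in HZ (SE 0.17, adjusted p = 0.0470), −0.15 with age in LC (SE 0.14, adjusted p = 0.337) and 0.75 between breeds at 30 days (SE 0.15, adjusted p = 0.0137), none called.

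LOC100620470, described as 17-beta-hydroxysteroid dehydrogenase type 6 and also chosen after its values were seen, had 1.38, 0 and 2.14 CPM in Ha and 0 in all 3 Hb libraries. In LC it had 8.74, 10.6 and 7.91 CPM at 30 days and 19.7, 19.8 and 13.1 CPM at 120 days. The breeds did not overlap at either age. The gene had few counts in Ha (36, 0 and 55), so no fold change or p is given for Ha vs La, and it was at least 103-fold higher in Lb than in Hb against the limit of 3 counts per library. The age difference in LC was 0.97 (SE 0.21, adjusted p = 0.00351), under the fold threshold.

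The list of other HSD17B symbols had 4 of 6 in the table (HSD17B13, HSDL1, HSDL2 and CBR4), and edgeR called 0 of 4 in each of the 4 comparisons, with medians of 0.17 and 0.21 with age in HZ and LC and of −0.26 and −0.20 between breeds at 30 and 120 days. By edgeR, 3, 3, 2 and 0 of them had an unadjusted p under 0.05; DESeq2 called 1 and limma 1 and 2 (offsets 1 and 0.1) with age in HZ, limma with offset 0.1 called 1 with age in LC, and these tools called 0 otherwise. HSD17B13, a lipid droplet protein of the liver, had at most 2.90 CPM in any library; without Hb1 it was called higher in Hb than in Ha (log2 1.49, SE 0.46). HSDL2, with 86.6 to 133 CPM in Hb, was called higher there without Hb1 as well (log2 1.09, SE 0.21, adjusted p = 0.00409, and 0.96 with Hb1). The list of lipid droplet proteins, the compartment of HSD17B11 and HSD17B13, had 4 higher and 0 lower of 7 tested in Ha vs Hb (median 1.01), beside 28.2% and 23.2% of all genes, and 3 higher and 1 lower of 8 without Hb1 (median 0.23), the lower one CIDEC (−2.22, SE 0.73, adjusted p = 0.0340). It had 2 higher and 0 lower of 9 in La vs Lb, and those higher were led in both by the lipase PNPLA2 (1.95, SE 0.24, adjusted p = 0.000306, and 1.86, SE 0.16, adjusted p = 1.52e-05). Between breeds edgeR called 0 of 8 at 30 days (5 at an unadjusted p under 0.05, 1 called by DESeq2, 0 by limma) and 0 of 7 at 120 days (3 at an unadjusted p under 0.05, 0 called by DESeq2 and limma).

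Of the cell type lists, the spermatid list had 9 of 9 tested genes called higher with age in each breed and the spermatocyte list 8 of 8 (medians 3.58 and 4.26). Most genes of the spermatid list were near 0 at 30 days, and only 5 of 10 passed the filter in Ha vs La. The genes below it there passed the filter in the age comparisons through the counts of the older boars. The spermatid calls with age therefore carry little beyond these counts, and no median is given for the list. The spermatogonia list of 11 had 3 higher and 6 lower in HZ and 4 higher and 5 lower in LC. Leydig markers were called lower for 4 of 6 in each breed, Sertoli markers for 4 of 8 in each, peritubular and stromal markers for 8 of 10 in HZ and 5 of 10 in LC (with 1 higher in LC), endothelial markers for 5 of 5 and 3 of 5, and macrophage markers for 5 of 5 and 4 of 5. Of the adrenal-like list, MRAP alone was tested and was lower in both. Over all genes, 28.2% were called higher and 23.2% lower with age in HZ, and 27.5% and 20.1% in LC.

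Between breeds at 30 days, edgeR called 3 of 8 Sertoli genes (higher in La), 4 of 8 spermatocyte genes and 1 of 10 spermatogonia genes (lower in La) and 0 of the genes tested of the other 6 lists, of which DESeq2 and limma also called 0 (by edgeR, 8 of 10 peritubular and stromal, 5 of 6 Leydig, 2 of 5 endothelial, 1 of 5 macrophage, 1 of 1 adrenal-like and 0 of 5 spermatid genes had an unadjusted p under 0.05). At 120 days it called 5 of 10 peritubular and stromal genes, 1 of 5 endothelial and 1 of 5 macrophage genes higher in Lb and 1 of 10 spermatid genes lower, and 0 of the other 5 lists (unadjusted p under 0.05 for 2 of 6 Leydig, 3 of 8 Sertoli, 4 of 8 spermatocyte, 2 of 10 spermatogonia and 0 of 1 adrenal-like genes). Of these 5 lists DESeq2 called 1 Sertoli and 1 spermatocyte gene, and limma called 1 Leydig gene (offset 1) and 2 Sertoli genes (offset 0.1). Without Hb1, edgeR called 2 of 10 spermatid genes lower in Lb at 120 days, PRM1 and AKAP4. It called 0 of 5 endothelial genes (1 at an unadjusted p under 0.05, PECAM1, adjusted p = 0.0919). It called 5 of 6 Leydig genes higher in Lb (median 4.42), but Hb1 was left out for its high Leydig sum. Nothing further is read from that Leydig count. The spermatid sum was higher in every Hb than in every Lb library. Over all genes, edgeR called 7.62% between breeds at 30 days and 3.85% at 120 days.

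Long non-coding RNAs (lncRNAs) that overlap a member or lie within 10 kb of one were 8 transcripts of 5 genes beside 4 members. Most had few counts: 2 were tested and called in Ha vs Hb (1 higher, 1 lower) against 56.2% of all lncRNAs tested, 2 of 2 in La vs Lb (1 higher, 1 lower) against 61.1%, 1 of 1 in Ha vs La against 6.35% and 0 of 2 by edgeR in Hb vs Lb against 3.14%, where both had an unadjusted p under 0.05 and DESeq2 called 1. LOC110259451 (XR_002341862.1) lies 1937 bases past the end of HSD17B4. In CPM of the lncRNA table it had 606, 519 and 610.1 in Ha, 232, 111 and 80.2 in Hb, 2090.2, 1062 and 2342 in La and 470.04, 568 and 474 in Lb. As with HSD17B4, every 120-day library was below every 30-day library of its breed, but unlike HSD17B4 the LC libraries were above the HZ libraries at both ages.

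The log2 fold change of LOC110259451 was −2.10 with age in HZ (SE 0.40, adjusted p = 0.00367) and −1.84 in LC (SE 0.33, adjusted p = 0.00162). It was 1.62 between breeds at 30 days (SE 0.32, adjusted p = 0.0299), a call lost without any 1 of Ha1, Ha2, Ha3, La1 or La3. In those edgeR fits the log2 fold change stayed at 1.45 to 1.66, with an adjusted p between 0.0799 and 0.119. At 120 days it was 1.95 (SE 0.39, adjusted p = 0.0505), called by DESeq2 and without Hb1. LOC102168147 (XR_301658.3), whose gene shares 10016 bases with HSD17B12, had 8.91, 0 and 0 CPM in Ha, 132, 80.7 and 62.8 in Hb, 3.35, 0 and 0 in La and 31.3, 20.7 and 58.2 in Lb. In counts this is 5.09, 0 and 0 in Ha, 81.5, 54.4 and 35.8 in Hb, 2.21, 0 and 0 in La and 22.8, 14.2 and 40.8 in Lb, so every 120-day library was above every 30-day library. The transcript passed the filter through its 120-day counts and was called higher at 120 days in both breeds, with too few counts at 30 days for the size of the fold, while HSD17B12 was called in neither. In Hb vs Lb it was −1.21 (SE 0.50, adjusted p = 0.273). The other lncRNA transcripts near a member were LOC110260906 at HSD17B2, LOC106510565 at HSD17B14, and LOC100521654 and the other transcripts of LOC102168147 at HSD17B12, each below the filter.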

How the data were processed

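Whole-testis RNA was sequenced in 12 libraries (4 groups of 3 boars). The authors trimmed reads with fastp 0.18.0, removed ribosomal reads with Bowtie2 2.2.8, mapped to the pig genome with HISAT2 2.1.0 and assembled transcripts with StringTie 1.3.4. The deposited estimated counts are not normalized, 37.5% of those above 0 are not whole (tolerance 0.005), and the tool that made them and its use of strand are not stated. The deposited FPKM values were scaled by the authors to transcript length and library size and rounded. Counts were rounded and tested with edgeR 4.0.16 in R 4.3.3 (filterByExpr with a minimum count of 10, TMM, quasi-likelihood test), once for each of the 4 pairwise comparisons of 6 libraries and once over all 12 for the interaction. P-values were adjusted by Benjamini-Hochberg over all genes tested, and the SE was derived from the fold change and the F statistic. Alternatives used DESeq2 1.42.0 or limma 3.58.1 on log2(FPKM + 1) and log2(FPKM + 0.1), other scalings and filters, 1 fit of all libraries, a block and each library left out. The lncRNA table (10706 transcripts, 496269 to 767783 counts per library) was fitted separately. The fits were also run on simulated data, and no result given here rests on that.

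Named genes are all members, the genes acting next to a member, the called gene with the smallest adjusted p per list, direction and comparison, the 3 genes of most similar pattern for members called in both age comparisons, and all lncRNAs within 10 kb. Values of 2 genes of the lists are not reported here. There were 9 pathway lists and 9 cell type lists; CBR4 stands on 2 of them and FSHR, LHCGR, STAR, CYP11A1, CYP17A1 and HSD3B1 on a pathway and a cell type list. The members and lists were chosen with earlier results of these data known. Protein sequences were not analysed here. Tables and figures were made with Python 3.11.15, pandas 2.3.3, scipy 1.17.1 and matplotlib 3.10.9.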

Additional observations from a re-analysis of the deposited data

Results flagged for a closer look

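LOC100620470, described as 17-beta-hydroxysteroid dehydrogenase type 6, was singled out because its age difference differed between the breeds by the interaction test over all 12 libraries (edgeR, adjusted p = 0.0408). Without Hb1 the adjusted p was 0.0572 and the interaction was not called. It had 36, 0 and 55 counts in Ha, 0 in all 3 Hb libraries, about 199 to 210 counts in La and 256 to 426 in Lb, so in LC it was higher at 120 days, while in HZ it was below the filter in Ha vs Hb and the ages overlapped, with 1 of the 30-day libraries also at 0. The gene passes the filter through its LC counts, so no difference between the breeds in the change with age is read from this p, and the size of the interaction is not given, since Hb is at 0 throughout.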

How the results depend on the processing

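Of 609 log2 fold changes of members under alternatives, 565 kept their direction and side of the thresholds, 7 lost and 12 gained a call and 25 turned direction, each of a member not called in that comparison, and the cause was not tested. With limma on log2(FPKM + 1) and log2(FPKM + 0.1), HSD17B14 in Ha vs Hb was −0.21 and −0.24, HSD17B12 in La vs Lb −0.25 and −0.25, HSD17B8 in Hb vs Lb 0.0809 and 0.0838, and the interaction of HSD17B7 0.28 and 0.36. Members called in Ha vs Hb were 4 by limma with either offset and 4 with no threshold on the fold change, 5 in La vs Lb with no threshold, and 1 in the interaction with limma on log2(FPKM + 1). Of all 16548 genes in Ha vs Hb, limma called 6647 (offset 1) and 9331 (offset 0.1), and 11394 were called with no threshold. With no threshold 11639 of 16637 genes were called in La vs Lb. In the interaction limma with offset 1 called 912 of 17332 genes. Leaving out 1 library at a time gave 2 to 4 members called in Ha vs Hb (4 without Hb2) and 1 to 2 in Ha vs La (1 without Ha1, La2 or La3). Without Hb2, 9015 of all 16934 genes were called in Ha vs Hb. Log2 fold changes over these were −0.0721 to 0.17 for HSD17B12 in La vs Lb; −0.10 to 0.25 for HSD17B7, −0.22 to 0.0309 for HSD17B12 and −0.23 to 0.11 for HSD17B14 in Ha vs La; −0.16 to 0.53 for HSD17B7, −0.16 to 0.0649 for HSD17B8 and −0.0513 to 0.32 for HSD17B14 in Hb vs Lb; and −0.27 to 0.35 for HSD17B7 and −0.0146 to 0.31 for HSD17B14 in the interaction. The difference between La and Lb in the log2 ratio of HSD17B3 to CYP17A1 was −0.0685 to 0.51. Counts of list genes here cover the pathway lists only, not the cell type lists. With no threshold, 68 pathway list genes were called in La vs Lb and 26 in Ha vs La, where leaving out a library gave 6 to 10. In Hb vs Lb pathway list genes called were 8 by DESeq2, 11 with all libraries in 1 fit and 0 to 16 with a library left out (16 without Hb1). In the interaction they were 16 and 19 by limma and 4 to 26 with a library left out. With a library left out 0 to 1 lncRNAs were called in either breed comparison, and DESeq2 called 1 in Hb vs Lb. By CPM the share of HSD17B4 was 64.4%, 45.6%, 59.7% and 49.6% in Ha, Hb, La and Lb.

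The correlation of residuals was −0.04 to 0.06 over the 12 pairs of libraries with the same number and −0.16 to 0.15 over the other pairs. In Ha vs Hb the pairs with the same number (0.02 to 0.06) lay above the other pairs (at most 0.01), and in the other comparisons they did not. The correlations were low and the boars differ, so the numbers were not treated as pairs. A replicate block on them left 0 genes of the pathway lists called in Hb vs Lb and 0 lncRNAs near a member in Ha vs La by edgeR. The cell type lists were not counted under the block. Depth limits HSD17B1 and HSD17B2 at 120 days. With 3 boars a group, boars and groups vary together in anything not recorded.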
